A study of Mus musculus with 45 samples.

Results

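Imprinted genes are genes of which, in the mouse, mainly the copy inherited from the mother or mainly the copy inherited from the father is transcribed. The genes described here are a list of 40 such genes from 20 clusters, matched by Ensembl gene ID to the deposited tables of mouse liver RNA. The table of gene counts, with 19966 genes, holds 38 of the 40. Rtl1 and Magel2 are listed only in the table of FPKM values (fragments per kilobase of transcript and M mapped fragments), where their highest values in any library were 0.0171 and 0.

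The libraries were poly(A) RNA of whole liver from C57Bl/6 mice of 8 to 12 weeks. WT livers were wild type, and KO livers were Uhrf1hepKO, by that name a deletion of Uhrf1 in hepatocytes. The transgene that drives the deletion is not named in the sources used here. Each genotype was sampled at baseline, taken here as before surgery, and after partial hepatectomy, the removal of part of the liver. The remaining lobes then grow back. The deposited headings of the baseline libraries begin with 40hrs_b. Whether these libraries came from the mice sampled at 40h is not given in the sources used here, and the main test modelled no pairing. The times after surgery were 24h, 30h, 40h, 48h and 96h, then 7d and 4wk. That gave 45 libraries in 16 groups, 13 groups of 3 and 3 groups of 2 (WT at 30h and 48h, and KO at 7d). Nothing in the labels ties each library to its own animal, and the p-values then measure no more than the spread from sample to sample, technical spread included. Total counts per library were 12.85 to 23.13 M.

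Imprinting rests on DNA methylation that is laid down differently in egg and sperm and then copied at each cell division. UHRF1 is the protein that recognises CpG sites that are methylated on the old strand only after replication and brings in DNMT1, the enzyme that completes the copy. Many imprinted genes act on fetal growth: paternally expressed genes tend to favour it and maternally expressed genes to restrain it, and several are active in fetal liver and shut down after birth. A regenerating liver that lacks Uhrf1 in hepatocytes is therefore a setting in which the level of these genes can be read while cells divide.

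Whole-series checks bear on what follows. Uhrf1 itself, in CPM (counts per M counts of the library, with the total scaled by TMM), was 64.9, 27.5 and 107 in the WT livers at 40h and 4.85, 8.95 and 3.59 in the KO livers. At 96h Uhrf1 was 0.270, 1.76 and 2.07 CPM in the KO livers and 0.792, 0.149 and 0.284 CPM in the libraries labelled WT. The groups overlapped there, with the higher mean in KO. Hepatocyte markers summed to 69610 to 349800 CPM over the libraries, with the highest sums in KO at 96h (203600 to 349800 CPM). None of these markers was at 0 throughout a group. The 3 libraries labelled WT at 96h stood apart from the other WT libraries. Bglap3, which was 3.18 CPM or more in every KO library, was 9.38, 14.0 and 28.4 CPM in them and at most 1.53 in other WT libraries. Rhox5 was 2.86, 4.75 and 9.58 CPM in the same libraries and at most 0.59 in other WT libraries. Contrasts at 96h are therefore given as the libraries are labelled, and the comparison of genotypes was led by the mean of the KO minus WT difference over the other 7 conditions.

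The promoters of the members differ widely in CpG content. RefSeq windows of the 250 bases before the start site (build GRCm38.p6) were found for 32 members, and the median window of a member held 10 CpG sites against 6 over all 32851 windows. A window of at least 20 CpG sites was present for 9 members, against 19.7% of all genes, and 12 members had only windows under 10 CpG sites, against 59.8% of all genes. The letters TGCCGC, the core bound by the imprint-protecting factor ZFP57, were present on either strand in a window of 8 members, against 9.84% of the 27025 genes with a window. The windows of 5 members are printed 5′ to 3′ with each CpG in capitals, since Igf2r, Peg3 and Slc38a4 are among the members of smallest p over the WT course, Airn lies across Igf2r, and Mest carries the motif.

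Igf2r: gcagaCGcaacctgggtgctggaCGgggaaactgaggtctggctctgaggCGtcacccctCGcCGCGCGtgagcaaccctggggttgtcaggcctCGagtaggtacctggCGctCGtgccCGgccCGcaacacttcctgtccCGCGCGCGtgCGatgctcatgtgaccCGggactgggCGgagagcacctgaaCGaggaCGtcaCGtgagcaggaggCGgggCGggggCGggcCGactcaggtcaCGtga
Airn: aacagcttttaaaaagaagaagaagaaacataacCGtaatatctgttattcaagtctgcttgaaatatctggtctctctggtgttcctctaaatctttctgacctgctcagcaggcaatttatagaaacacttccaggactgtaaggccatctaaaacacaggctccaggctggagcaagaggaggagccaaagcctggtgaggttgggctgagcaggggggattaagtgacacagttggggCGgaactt
Peg3: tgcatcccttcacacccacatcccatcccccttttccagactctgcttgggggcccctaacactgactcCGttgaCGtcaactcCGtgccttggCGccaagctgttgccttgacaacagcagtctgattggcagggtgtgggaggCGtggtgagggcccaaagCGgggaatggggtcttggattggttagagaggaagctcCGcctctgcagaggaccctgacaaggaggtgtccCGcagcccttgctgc
Slc38a4: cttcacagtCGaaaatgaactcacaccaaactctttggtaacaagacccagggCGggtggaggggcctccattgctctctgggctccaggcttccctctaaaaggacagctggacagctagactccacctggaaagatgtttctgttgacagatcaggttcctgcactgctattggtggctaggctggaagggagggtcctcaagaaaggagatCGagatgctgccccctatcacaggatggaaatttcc
Mest: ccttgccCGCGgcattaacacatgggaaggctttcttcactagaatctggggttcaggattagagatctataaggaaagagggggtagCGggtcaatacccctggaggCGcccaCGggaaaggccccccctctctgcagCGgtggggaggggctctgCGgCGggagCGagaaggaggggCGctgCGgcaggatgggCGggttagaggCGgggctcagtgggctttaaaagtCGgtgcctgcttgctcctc

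The window of Igf2r (chr17:12769707-12769956, minus strand) holds 27 CpG sites and that of Airn (chr17:12741061-12741310, plus strand), which starts inside Igf2r, holds 2. The window of Peg3 (chr7:6730420-6730669, minus strand) holds 8 and that of Slc38a4 (chr15:97055957-97056206, minus strand) holds 3. The printed window of Mest (chr6:30737800-30738049, plus strand) holds 14 CpG sites and the letters TGCCGC at 2 places. It was chosen for the highest CpG count, while the other printed windows were those nearest the annotated start. Another Mest window (chr6:30733256-30733505, plus strand) holds 7 CpG sites and lacks these letters. A match is a description of the letters, not of binding or methylation, neither of which these RNA data measure.

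In WT liver before surgery most members were low. Slc38a4, which encodes a transporter of neutral amino acids into hepatocytes, was the highest, at 319.8 ± 45.8 FPKM (SD, n = 3). Gnas, the alpha subunit of the stimulatory G protein, followed at 115.8 ± 9.15 FPKM, and Slc22a18, a transporter of the organic ion family, at 69.7 ± 1.47 FPKM. Commd1, a protein that takes part in copper export, stood at 59.4 ± 0.571 FPKM, and H13, a signal peptide peptidase of the endoplasmic reticulum, at 46.8 ± 2.03 FPKM. These 5 members were the only ones above 10 FPKM. Another 11, from Copg2 at 8.85 FPKM down to Sgce at 1.20 FPKM, lay between 1 and 10, and 24 lay under 1 FPKM. Levels are compared between genes only on this scale, which divides by transcript length.

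The fetal growth genes were among the 24 low members. Igf2, the fetal insulin-like growth factor, was at 0.0605 ± 0.0846 FPKM and H19, the maternally expressed long noncoding RNA beside it, at 0.0468 ± 0.0239 FPKM. Dlk1, a membrane-bound Notch-family ligand of fetal liver, was listed at 0 in the 3 WT baseline libraries. In the count table Dlk1 was 0 in 25 of the 45 libraries, and its highest count was 3. Mirg, a host of microRNAs in the same cluster, reached at most 7 counts. Mirg, Dlk1, Usp29, Zim1, Nap1l5, Rasgrf1 and Zdbf2 did not pass the filter on low counts, so 31 members were tested. The tables disagree on the level of several members. The ratio of the median FPKM to the median CPM per kilobase of exon was 946 for Gnas, whose median library held 24 counts, and 42.3 for Commd1, with 157 counts. It was 15.7 for Meg3, 12.4 for Rian, 9.0 for Mirg and 6.35 for Sgce, against a median of 1.56 over the tested members. The cause was not tested.

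**Figure D1:**
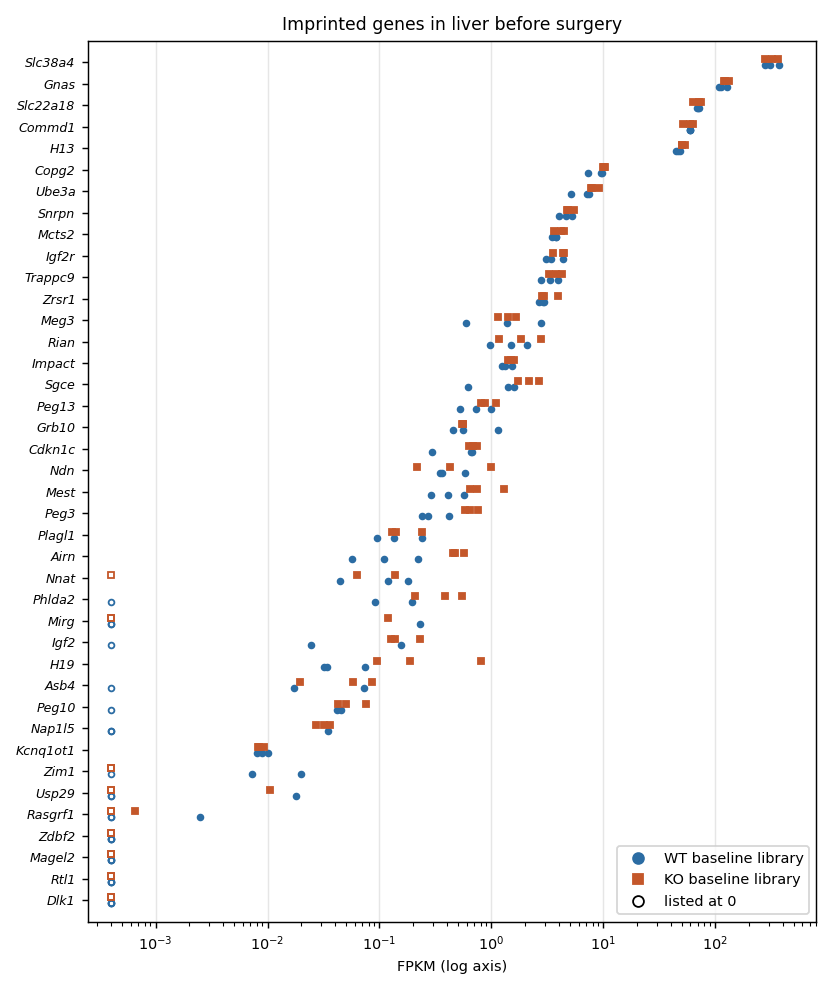
FPKM (log axis) of the 40 imprinted genes in each WT (circles) and KO (squares) liver library before surgery, ordered by the WT mean, with open symbols for values listed at 0. Slc38a4, Gnas, Slc22a18, Commd1 and H13 lie above 10 FPKM, and 24 members lie under 1 FPKM in WT.

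After partial hepatectomy the growth-restraining receptor gene Igf2r rose and the amino acid transporter gene Slc38a4 fell within 24h, in both genotypes. Peg3 and Impact rose with Igf2r, and Copg2 fell with Slc38a4. All contrasts used edgeR's quasi-likelihood test with Benjamini-Hochberg adjustment over 14090 genes, and a gene was called at an adjusted p under 0.05. In WT livers 8 of 31 members were called at 24h, against 22.4% of all genes. Of these, 4 were higher, against 10.5% of genes, and 4 lower, against 11.9%. In KO livers 6 members were called at 24h, against 23.7% of all genes, with 3 higher, against 11.5%, and 3 lower, against 12.2%. The times of a genotype share its baseline libraries.

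Igf2r (chr17:12682406-12769664, minus strand) encodes the receptor that binds IGF2 and takes it to the lysosome. Its values in WT libraries were 36.9, 46.9 and 39.7 CPM at baseline and 91.3, 60.3 and 91.8 CPM at 24h. KO libraries had 44.2, 35.7 and 44.0 CPM at baseline and 92.9, 81.8 and 76.7 CPM at 24h. Every 24h library was above every baseline library of either genotype. The log2 fold change was 0.98 ± 0.16 (SE) in WT (edgeR adjusted p = 3.1e-05) and 1.02 ± 0.16 in KO (adjusted p = 1.52e-05). At 96h the level was 31.1, 29.2 and 34.8 CPM in the libraries labelled WT, each below the 3 baseline values, but Igf2r was not called there. In KO livers at 96h the mean was 29.6 CPM, the lowest of all groups, and Igf2r was called lower than at KO baseline. That call was lost without KO baseline replicate 1 or 3 or KO 96h replicate 1 (log2 -0.569 to -0.289, highest edgeR adjusted p 0.2). In WT livers at 4wk Igf2r was 39.9, 40.4 and 40.1 CPM, within the baseline range. In KO livers at 40h it was 50.0, 35.1 and 54.4 CPM, and in WT livers 60.1, 61.8 and 65.8 CPM. That difference of genotype was not called (log2 -0.43 ± 0.16, edgeR adjusted p = 0.76).

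Airn (chr17:12741311-12860136, plus strand) is the paternally expressed noncoding RNA that silences Igf2r on the paternal chromosome in many tissues. It is singled out here after its values were seen, because it lies across Igf2r. Counts were 1, 2 and 2 in the WT baseline libraries, 13, 6 and 25 at 24h and 14 and 18 in the 2 libraries at 30h. The summed counts, scaled to library size, were 6.62 times the baseline at 24h (exact 95% interval 2.63 to 21.4, counting error only) and 9.02 times at 30h (3.49 to 29.6). No library at 24h or 30h overlapped the baseline. The fitted log2 change was 2.64 ± 0.75 at 24h (edgeR adjusted p = 0.00945), and without WT baseline replicate 1 or WT 24h replicate 3 the call was lost (highest adjusted p 0.0951). At 30h it was 3.10 ± 0.79 (edgeR adjusted p = 0.00484) and it was called without any single library. In KO livers Airn was at 8, 7 and 5 counts before surgery, and its KO time course was not called (edgeR adjusted p = 0.334). The log2 difference of KO and WT at baseline was 1.67 ± 0.83 and was not called (edgeR adjusted p = 0.707). The genotype by time test did not call Airn either (edgeR unadjusted p = 0.347). Airn shares no exon bases with Igf2r, but the strand setting of the counting is not given in the sources used here, so Airn RNA and unspliced Igf2r RNA cannot be told apart.

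Peg3 (chr7:6703892-6730431, minus strand) encodes a paternally expressed zinc finger protein linked to growth and cell death. WT livers had 2.63, 3.86 and 2.98 CPM at baseline and 17.7, 8.67 and 9.60 CPM at 24h. They held 10.3, 8.45 and 10.4 CPM at 40h and were back at 2.64, 3.45 and 2.11 CPM at 7d. The rise at 24h was 1.93 ± 0.36 on the log2 scale (edgeR adjusted p = 0.000174), with no overlap between the groups. KO livers began higher, at 5.42, 6.24 and 6.90 CPM, and reached 14.9, 12.1 and 12.2 CPM at 24h. That rise was 1.07 ± 0.34 (edgeR adjusted p = 0.0193), a call lost without KO baseline replicate 1 or KO 24h replicate 1 (highest adjusted p 0.0769). Whether the 2 genotypes' courses of Peg3 differ is covered by the genotype by time test, which did not call it.

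Impact encodes an inhibitor of GCN2, the kinase that senses amino acid shortage. WT livers had 5.70, 5.44 and 6.95 CPM at baseline and 10.5, 9.89 and 10.8 CPM at 24h, a rise of 0.79 ± 0.19 (edgeR adjusted p = 0.00209). KO livers had 5.28, 5.87 and 6.02 CPM at baseline, 9.29, 11.1 and 10.2 CPM at 24h and 11.1, 9.60 and 18.1 CPM at 40h. The KO rise was 0.83 ± 0.19 at 24h (edgeR adjusted p = 0.00108) and 1.17 ± 0.19 at 40h (4.68e-06). No library at 24h or 40h overlapped the baseline of its genotype.

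Slc38a4 (chr15:96994820-97055956, minus strand) fell most in absolute level. WT livers had 1276, 1413 and 1084 CPM at baseline and 676, 601 and 500 CPM at 24h. KO livers had 1352, 900 and 1115 CPM at baseline and 530, 526 and 467 CPM at 24h. The log2 change was -1.09 ± 0.18 in WT (edgeR adjusted p = 2.67e-05) and -1.14 ± 0.18 in KO (1.13e-05), with no overlap of groups. At 7d the level was 1355, 1249 and 1231 CPM in WT and 1375 and 1308 CPM in KO, inside the range of the baseline libraries or above it. Hepatocyte markers fell at 24h as well: 5 of 10 were called lower and 1 higher in WT, and 3 lower and 1 higher in KO, beside the 22.4% and 23.7% of all genes called. In bulk liver, fewer cells of a type and less RNA per cell cannot be told apart, and the part of the markers' change in that of Slc38a4 was not tested.

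Copg2 (chr6:30747554-30896794, minus strand), a subunit of the COPI vesicle coat, moved less but steadily. WT livers had 36.0, 35.9 and 30.7 CPM at baseline and 24.1, 25.3 and 27.0 CPM at 24h, a log2 change of -0.43 ± 0.11 (edgeR adjusted p = 0.004). KO livers had 33.4, 35.8 and 36.2 CPM at baseline and 25.1, 21.9 and 21.9 CPM at 30h (-0.61 ± 0.11, adjusted p = 4.32e-05). In both genotypes Copg2 was called lower at 24h, 30h, 40h and 48h, and the groups did not overlap at those times. The WT call at 30h was lost without WT baseline replicate 1 or 2 or without WT 30h replicate 2 or 3 (highest adjusted p 0.146). Its 3′ end overlaps that of Mest (chr6:30723547-30748465, plus strand), with 17.8% of Copg2 exon bases and 23.1% of Mest exon bases shared, so reads there cannot be assigned without strand.

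Slc22a18 (chr7:143473736-143499334, plus strand), in the Kcnq1ot1 cluster, fell in the division phase in WT and rose late in KO. WT livers had 127, 113 and 126 CPM at baseline, 102.5, 94.4 and 81.85 CPM at 24h and 81.4 and 85.1 CPM at 48h. The change was -0.39 ± 0.12 at 24h (edgeR adjusted p = 0.0137), a call lost without WT baseline replicate 1 or WT 24h replicate 3 (highest 0.108), and -0.55 ± 0.13 at 48h (0.00153). In KO livers, at 110, 96.1 and 112 CPM at baseline, no fall passed the test: at 24h they had 88.1, 103.9 and 89.0 CPM (-0.18 ± 0.12, adjusted p = 0.294) and at 40h the change was -0.26 ± 0.12 (0.0889). At 4wk the KO livers had 159, 153 and 148 CPM at 4wk, a rise of 0.53 ± 0.12 (edgeR adjusted p = 0.00539). At 7d the KO values were 142 and 172 CPM (0.56 ± 0.13, edgeR adjusted p = 0.00927), a call lost without KO 7d replicate 3 (adjusted p 0.296). The late KO libraries did not overlap the KO baseline. In WT the values at 4wk were 132, 133 and 154 CPM, all above the 3 baseline values, but Slc22a18 was not called there (0.20 ± 0.12, edgeR adjusted p = 0.475). The genotype by time test did not call Slc22a18.

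Cdkn1c (chr7:143458339-143461050, minus strand) encodes p57, a maternally expressed inhibitor of cyclin-dependent kinases. WT livers had 1.53, 1.502 and 0.688 CPM at baseline and 0.309, 0.366 and 0.434 CPM at 24h, a fall of 1.73 ± 0.39 on the log2 scale (edgeR adjusted p = 0.00126). The groups did not overlap. KO livers had 1.48, 1.24 and 1.34 CPM at baseline and 1.03, 1.04 and 0.683 CPM at 24h. Cdkn1c was not called there, nor in the genotype by time test. Its exons share 30.7% of their bases with Gm44732.

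**Figure D2:**
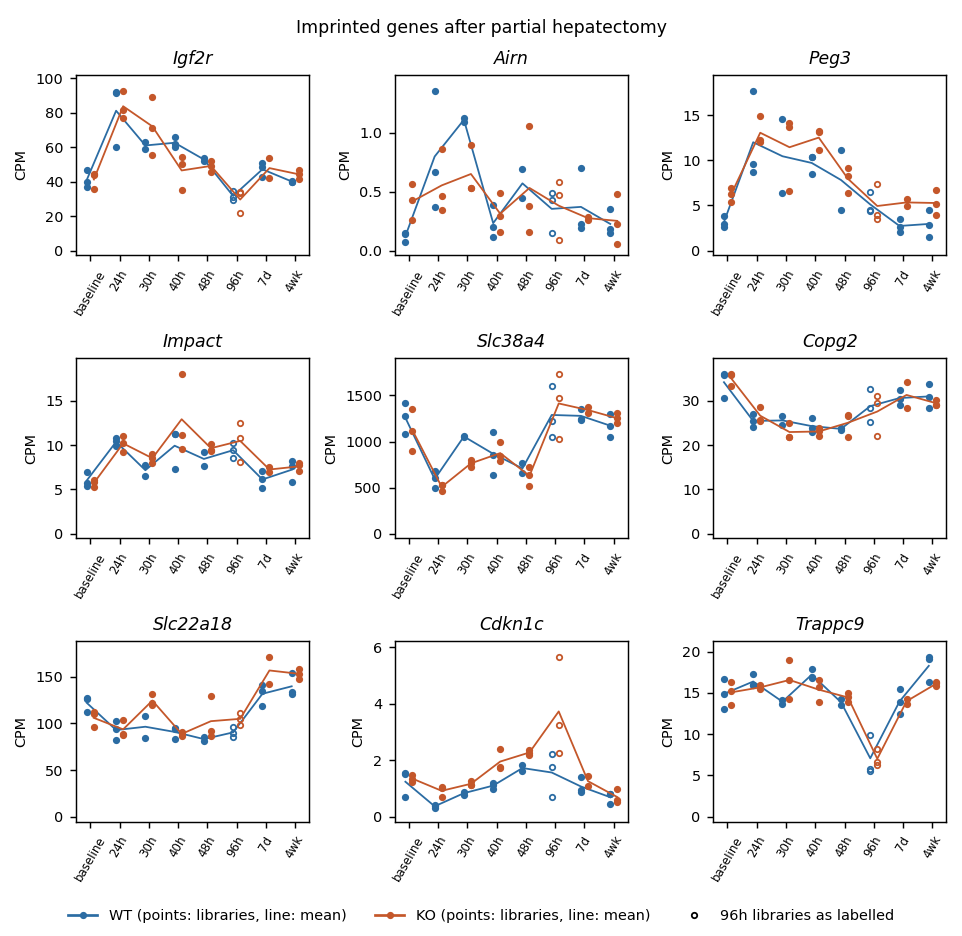
CPM (linear axes from 0) of 9 imprinted genes in each WT and KO library by time after partial hepatectomy, with lines through the group means and open points for the libraries at 96h as labelled. Igf2r, Peg3 and Impact are above baseline at 24h, Slc38a4 and Copg2 below it, and Trappc9 is low at 96h in the libraries of both labels.

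At later times of the division phase the counts of called members stayed near or below the share of all genes. In WT at 30h 4 of 31 were called, against 17.7% of genes, with 3 higher (9.33% of genes) and 1 lower (8.35%). At 40h 8 were called in WT, against 36.5%, with 3 higher (19.2%) and 5 lower (17.3%). At 48h 6 were called in WT, against 31%, with 3 higher (15.6%) and 3 lower (15.4%). In KO at 30h 8 were called, against 33.1% of genes, with 4 higher (17%) and 4 lower (16.1%). At 40h 4 were called in KO, against 35.6%, with 3 higher (17.9%) and 1 lower (17.7%). At 48h 7 were called in KO, against 36%, with 2 higher (19%) and 5 lower (17%). Several of these counts lean on single libraries. The WT count at 30h was 2 without WT baseline replicate 1 and 1 without WT 30h replicate 3, at 40h it was 5 without WT 40h replicate 1, and at 48h it was 3 without WT 48h replicate 2. The KO count at 30h was 2 without KO baseline replicate 1, 4 without KO baseline replicate 3 or KO 30h replicate 2, and 5 without KO 30h replicate 3. The KO count at 40h was 2 without KO baseline replicate 1. Airn at WT 48h (log2 2.16 ± 0.84, edgeR adjusted p = 0.0467) and Mest at WT 48h (1.22 ± 0.40, adjusted p = 0.0178) were 2 such calls. Airn lost its call without any 1 of the 5 libraries (highest adjusted p 0.254), and Mest without WT baseline replicate 3 or WT 48h replicate 2 (highest 0.533).

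Few members were called against baseline at 7d and 4wk. In WT no member was called at 7d (2 at an unadjusted p under 0.05 in edgeR, 0 in DESeq2), against 3.56% of genes, or at 4wk (5 unadjusted, 0 in DESeq2), against 1.17%. In KO 1 member, Slc22a18, was called at 7d, against 5.56% of genes and 3.06% in that direction. That count was 0 without KO 7d replicate 3 and 2 without KO baseline replicate 2. At an unadjusted p under 0.05 in edgeR KO had 8 of 31 members at 7d, against 22.2% of genes, and 12 of 31 at 4wk, against 25.5%, while in WT the genes at that threshold were 17.4% and 13.9%. At 4wk 3 members were called in KO, against 8.57% of genes: Slc22a18 and Commd1 higher (4.29% of genes) and Sgce lower (4.28%). Sgce, the epsilon subunit of the sarcoglycan complex, had 4.29, 2.90 and 3.29 CPM at KO baseline and 1.31, 2.23 and 1.43 CPM at 4wk (log2 -1.09 ± 0.30, edgeR adjusted p = 0.022). The KO count at 4wk was 1 without KO baseline replicate 1, KO 4wk replicate 1 or KO 4wk replicate 3. Commd1 (0.53 ± 0.17, adjusted p = 0.0457) lost its call without any 1 of the 6 libraries (highest 0.199), and Sgce without the same 3 libraries as the count (highest 0.11).

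Meg3 and Rian, maternally expressed noncoding RNAs of the Dlk1 cluster (chr12:109541001-109571726 and chr12:109603940-109661716, plus strand), had their highest group means in KO livers at 4wk, and WT livers were also higher on average at 4wk than at baseline. In WT Meg3 was 0.876, 3.075 and 1.45 CPM at baseline, 0.979, 0.977 and 0.868 CPM at 24h and 3.12, 2.71 and 4.44 CPM at 4wk. In KO it was 2.04, 2.04 and 1.545 CPM at baseline, 3.40 and 5.63 CPM at 7d and 4.62, 5.58 and 3.86 CPM at 4wk, with no overlap of the late libraries with baseline. Rian was 1.97, 3.65 and 2.29 CPM at WT baseline and 4.35, 3.07 and 7.28 CPM at WT 4wk, and for both genes the WT groups overlapped. It was 4.01, 2.16 and 2.58 CPM at KO baseline and 6.62, 7.44 and 5.71 CPM at 4wk, also with no overlap. The single contrasts at 4wk missed the threshold. At KO 4wk the log2 change was 1.32 ± 0.48 for Meg3 (edgeR adjusted p = 0.0738) and 1.18 ± 0.40 for Rian (0.0559). At WT 4wk it was 0.91 ± 0.49 (0.416) and 0.87 ± 0.41 (0.33). Rian was called higher than baseline at KO 96h, a call lost without KO baseline replicate 2 or 3 or KO 96h replicate 2 or 3 (log2 0.614 to 1.27, highest edgeR adjusted p 0.277). KO and WT at 4wk differed by 0.46 ± 0.45 for Meg3 and 0.44 ± 0.38 for Rian, neither called (edgeR adjusted p = 1 for both). The joint test of the KO times other than 96h called both (Meg3 adjusted p = 0.000818, Rian 0.0135). The WT joint test called Rian (adjusted p = 0.00796) and Meg3 (0.0406). The WT call of Meg3 was lost without any 1 of 10 libraries: each of the 3 at 24h and the 3 at 4wk, both at 30h, WT 48h replicate 2 and WT 7d replicate 2 (highest 0.185). In the same KO livers at 4wk 8 of 15 endothelial markers and 4 of 15 stellate and fibroblast markers were called lower than at baseline, against 4.28% of all genes, and none higher. Their summed level was 208.4 to 234.6 CPM against 359.6 to 396.7 CPM at baseline for the endothelial list, and 104.8 to 150.8 against 170.1 to 281.4 CPM for the stellate list. In WT livers the endothelial list was also lower at 4wk, at 229.4 to 257.4 CPM against 289.0 to 356.7 CPM at baseline. The WT stellate list overlapped its baseline (142.4 to 190.0 against 137.8 to 198.4 CPM). No marker of either list was at 0 throughout a group, and the part of these cells in the change of Meg3 and Rian was not tested.

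Over the whole course without 96h, the joint test called 15 of 31 members in WT, against 53.6% of genes, and 19 of 31 in KO, against 65.7%. In WT the smallest values were those of Peg3 (edgeR adjusted p = 1.83e-06), Slc22a18 (4.26e-06), Slc38a4 (1.07e-05) and Igf2r (1.26e-05), followed by Copg2, Cdkn1c, Zrsr1 and Impact. In KO they were those of Slc38a4 (1.53e-07), Slc22a18 (3.22e-07), Igf2r (2.26e-06) and Copg2 (3.67e-05), followed by Impact, Cdkn1c, Meg3 and Sgce. Zrsr1, a paternally expressed splicing factor gene in an intron of Commd1, was 8.84, 8.01 and 9.63 CPM at WT baseline and 3.71, 7.95 and 4.00 CPM at 40h. That fall was 0.75 ± 0.23 on the log2 scale (edgeR adjusted p = 0.0109), lost without WT 40h replicate 1 or 3 (highest 0.098). H19 was called in the KO joint test (adjusted p = 0.0171) but not without KO 40h replicate 2 (0.0557). Igf2, Grb10 and Plagl1 were called in neither joint test, and Snrpn only in the KO one.

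Between the genotypes, the main test called no member for the mean of the 7 conditions other than 96h, and alternatives called up to 3. In the main test 0 of 31 were called, against 2.13% of all genes (300 of 14090). Cdkn1c was called in a fit without the 96h libraries, which called 331 genes in all. With limma on FPKM, which called 343 to 406 genes, Cdkn1c, Slc22a18 or Peg3 were called. With 96h included as labelled, the mean of 8 conditions called 2 members, Cdkn1c (0.58 ± 0.13, edgeR adjusted p = 0.00545) and Rian (0.56 ± 0.15, 0.0279), both higher in KO, against 3.14% of genes in all and 2.34% higher. For the mean of 7 conditions, 8 members had an unadjusted p under 0.05 in edgeR, against 10.6% of genes. For that same mean of 7, DESeq2 called 2 members, Rian and Peg3, among 402 genes in all. The median log2 difference of the members was 0.059, against -0.005 over all genes, and 17 members were above 0. No allele was measured here, so members were classed by the copy they are listed as expressing, which need not hold in liver. Copg2 and Gnas were left in neither class. Members listed as maternally expressed had a median of 0.06 (13 tested, 8 above 0). Those listed as paternally expressed had 0.037 (16 tested, 9 above 0). The test of genotype by time called 0 members, against 0.0426% of genes. There 3 members had an unadjusted p under 0.05, Mest (0.0091), Slc22a18 (0.0281) and Rian (0.0326), and DESeq2 called 0 members.

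Within the single conditions other than 96h, 0 members were called in edgeR and 0 in DESeq2. The share of all genes called there was 0.0852% before surgery and, after it, 0.0426% (24h), 0.937% (30h), 0.142% (40h), 0.135% (48h), 0.135% (7d) and 0.22% (4wk). Members at an unadjusted p under 0.05 numbered 2, 2, 6, 5, 2, 5 and 1 of 31 in the same order, beside 7.08%, 3.36%, 10.7%, 5.59%, 4.98%, 5.49% and 4.82% of all genes.

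Cdkn1c came nearest to the threshold. At 40h it was 2.40, 1.76 and 1.72 CPM in KO and 1.12, 1.21 and 0.983 CPM in WT, and at 48h 2.37, 2.204 and 2.25 CPM in KO and 1.83 and 1.62 CPM in WT. The KO mean was higher in 7 of 7 conditions, which held for 2.38% of all genes and for 3 members, Igf2, Cdkn1c and Peg3. The KO libraries were all above the WT libraries in 4 conditions, 24h, 30h, 40h and 48h, and 1.06% of all genes had 4 or more such conditions. The mean difference was 0.48 ± 0.14 on the log2 scale (edgeR adjusted p = 0.0589, 0.0437 to 0.137 when single libraries were left out). In a fit without the 96h libraries it was 0.49 with an adjusted p of 0.0126.

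Rian and Peg3 were close behind. The Rian difference was 0.57 ± 0.16 (edgeR adjusted p = 0.0591), with the KO mean higher in 6 of 7 conditions. At 7d Rian was 4.71 and 7.79 CPM in KO and 3.26, 1.45 and 1.47 CPM in WT, without overlap. The Peg3 difference was 0.48 ± 0.14 (edgeR adjusted p = 0.0641), with the KO mean higher in 7 of 7. The KO libraries were all above the WT libraries for Peg3 in 3 conditions, baseline, 40h and 7d, and 2.99% of all genes had at least 3 such conditions. Without single libraries the adjusted p ran from 0.0163 to 0.138 for Rian and from 0.0142 to 0.154 for Peg3, so both were called in some of these fits and not in others. The count of called members rose from 0 to 2 without WT baseline replicate 2. It rose to 1 without WT 24h replicate 1 or 3, KO 24h replicate 1, WT 30h replicate 3, KO 30h replicate 2 or 3, WT 40h replicate 3, WT 48h replicate 3, WT 7d replicate 1 or 2, or WT 4wk replicate 2 or 3.

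Igf2, its receptor gene Igf2r and Grb10 were not called in the mean of 7 conditions. Igf2 was 0.281, 0.309 and 0.412 CPM at KO baseline and 0, 0.715 and 0.0764 CPM at WT baseline, and at 30h 0.376, 1.45 and 0.470 CPM in KO and 0 and 0.121 CPM in WT. The groups overlapped at baseline and not at 30h. The mean difference of Igf2 was 1.25 ± 0.42 (edgeR adjusted p = 0.148), and it was called without WT baseline replicate 2 (1.62, adjusted p = 0.0493). For Igf2, 64.5% of its exon bases are shared with Gm49394 and Igf2os. Igf2r differed by -0.01 ± 0.06 (adjusted p = 0.988). Grb10, a maternally expressed adaptor that dampens insulin and IGF1 receptor signalling, ranged from 2.06 to 7.24 CPM over all libraries with a median of 3.57, and differed by -0.12 ± 0.12 (adjusted p = 0.841).

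The other members fixed for description did not pass the test either. Meg3 differed by 0.41 ± 0.20 (edgeR adjusted p = 0.482) and H19 by 0.68 ± 0.53 (0.759). Plagl1, a paternally expressed zinc finger gene that regulates other imprinted genes, had 0.312 to 3.19 CPM over all libraries and differed by -0.20 ± 0.19 (0.835). Mest, a paternally expressed hydrolase-like protein of fetal mesoderm, was 3.16 and 1.40 CPM in WT and 0.847, 1.32 and 0.973 CPM in KO at 48h, and differed by -0.09 ± 0.15 in the mean (0.931). Snrpn, a paternally expressed small nuclear ribonucleoprotein gene, had 1.98 to 6.90 CPM and differed by 0.21 ± 0.10 (0.459), with 34.1% of its exon bases shared with Snurf and other models. Gnas, on its low counts, differed by -0.11 ± 0.12 (0.878).

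**Figure D3:**
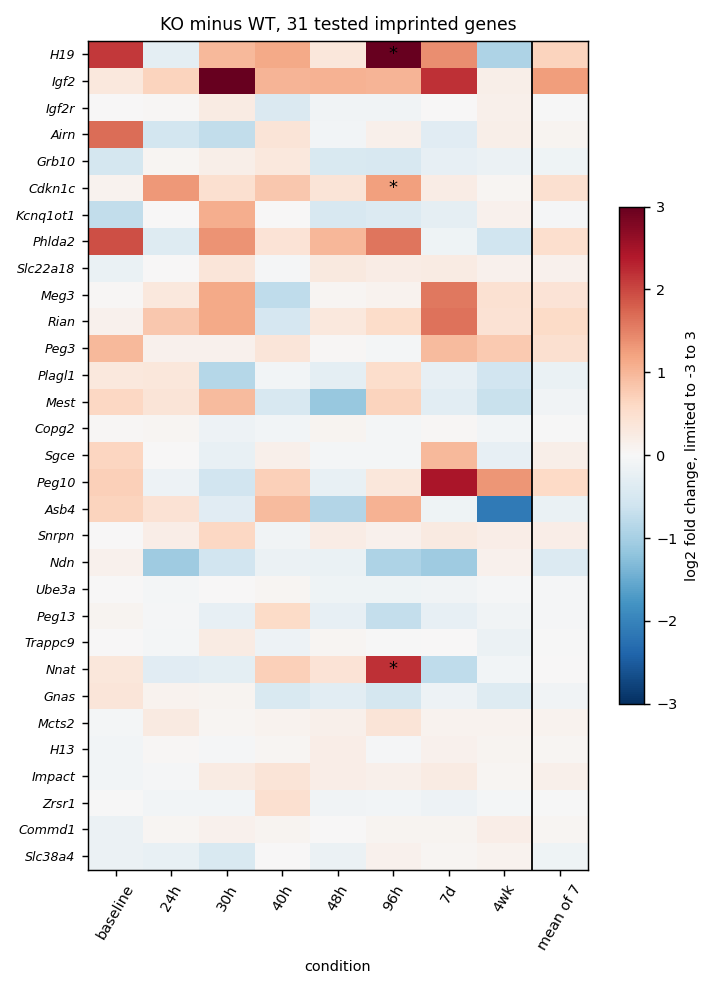
log2 fold change of KO over WT (colour, limited to -3 to 3) of the 31 tested imprinted genes at each condition and as the mean of the 7 conditions other than 96h, with stars where edgeR's adjusted p was under 0.05. The stars are H19, Cdkn1c and Nnat at 96h, and the column of the mean has none.

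At 96h, as the libraries are labelled, 3 of 31 members were called, all higher in KO, against 14.3% of all genes and 7.22% in that direction. H19 (chr7:142575529-142578143, minus strand) had 164, 62 and 18 counts in the KO libraries and 3, 1 and 0 in those labelled WT. That is 14.8, 4.03 and 1.20 CPM against 0.183, 0.0742 and 0 CPM, without overlap. The ratio of summed counts was 64.7 (exact 95% interval 25 to 239, counting error only), and the fitted log2 change was 6.07 ± 1.00 (edgeR adjusted p = 0.000159). It was called without any 1 of the 6 libraries, with a log2 change from 4.75 without KO 96h replicate 1 to 7.24 without WT 96h replicate 1, but not when those 6 were fitted alone (adjusted p = 0.0541). In the other 39 libraries H19 was at most 1.76 CPM, in a KO liver at 40h. Among KO livers the rise from baseline to 96h was 4.23 ± 0.81 (adjusted p = 7.21e-05), and 2.92 without KO 96h replicate 1, where it was still called.

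Cdkn1c was 5.67, 3.25 and 2.27 CPM in KO at 96h and 1.77, 2.23 and 0.709 CPM in the libraries labelled WT, without overlap but with the lowest KO value close to the highest of the others. Its difference was 1.23 ± 0.31 (edgeR adjusted p = 0.00723) and was lost without KO 96h replicate 1 or WT 96h replicate 3 (highest 0.099) and when the 6 libraries were fitted alone (0.202). Nnat, a small membrane proteolipid known from brain, had 8, 6 and 4 counts in KO and 1, 0 and 3 in the libraries labelled WT. The ratio of its summed counts was 4.77 (exact 95% interval 1.57 to 19.4, counting error only). Its edgeR adjusted p of 0.0434 was lost without KO 96h replicate 1 or 2 or WT 96h replicate 1 or 2 (highest 0.172), with DESeq2 (0.0658) and with no filter on low counts (0.0604). The count of 3 members was 1 without KO 96h replicate 1.

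Some cell markers were called at 96h, and the summed levels of 4 lists did not overlap. Of 10 hepatocyte markers 2 were called (median log2 0.09) and of 11 Kupffer and macrophage markers 1 (median 0.61). Of 6 tested monocyte and neutrophil markers 2 were called (median 1.42). All these calls were higher in KO, beside 14.3% of all genes called and 7.22% called higher. The hepatocyte list summed to 203600 to 349800 CPM in KO and 106200 to 175700 CPM in the libraries labelled WT. The Kupffer and macrophage list summed to 474.7 to 848.4 CPM against 291.1 to 402.5 CPM, and the monocyte and neutrophil list to 82.8 to 124.7 CPM against 54.8 to 62.7 CPM. The exocrine pancreas and gut list, 3 genes with none called, summed to 93.6 to 112.2 CPM in KO against 122.2 to 151.1 CPM. Of these genes Mpo was at 0 throughout the libraries labelled WT, and no other was at 0 throughout a group. The part of these shifts in the values of H19, Cdkn1c and Nnat was not tested. What the libraries labelled WT at 96h stand for cannot be told from the sources used here, so the direction at 96h is that of the labels.

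Against their own baseline, 7 members were called at 96h in the libraries labelled WT, against 27.4% of genes, with 5 higher (12.8%) and 2 lower (14.6%). In KO 13 were called, against 44%, with 8 higher (21.9%) and 5 lower (22.1%). At KO 96h the hepatocyte list summed to 203600 to 349800 CPM, against 92240 to 100800 CPM at KO baseline. The Kupffer and macrophage list had 474.7 to 848.4 against 226.3 to 319.5 CPM, and the endothelial list 246.5 to 352.7 against 359.6 to 396.7 CPM. Under the WT label the hepatocyte list overlapped its baseline (106200 to 175700 against 97460 to 114200 CPM). The part of these shifts in the members' changes was not tested. Trappc9 (chr15:72589620-73061204, minus strand), a subunit of a vesicle tethering complex, is named after its values were seen, as the only member called lower at 96h under both labels. It was 13.1, 16.7 and 14.9 CPM at WT baseline and 5.73, 5.57 and 9.93 CPM at 96h. KO livers had 13.6, 15.3 and 16.3 CPM at baseline and 6.21, 6.63 and 8.22 CPM at 96h. The log2 change was -1.07 ± 0.15 (edgeR adjusted p = 5.04e-06) and -1.10 ± 0.15 (2.86e-07), without overlap. Its CPM in the other 39 libraries was 12.5 to 19.4. Peg13, a noncoding RNA in an intron of Trappc9, is named beside it for its position. Peg13 was 5.77, 4.26 and 4.53 CPM at KO baseline and 1.98, 1.63 and 1.94 CPM at KO 96h (-1.39 ± 0.25, adjusted p = 3.57e-05), and 2.07, 3.27 and 3.76 CPM in the libraries labelled WT.

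**Figure D4:**
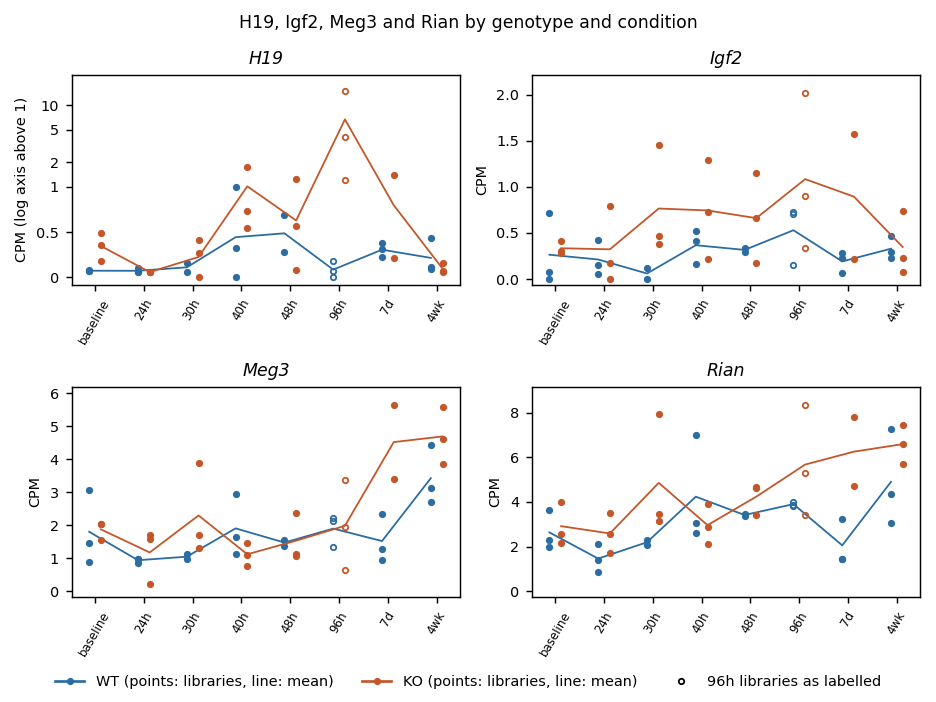
CPM of H19 (axis linear to 1 and logarithmic above), Igf2, Meg3 and Rian (linear axes) in each WT and KO library by condition, with lines through group means and open points for the libraries at 96h as labelled. H19 exceeds 2 CPM only in 2 KO libraries at 96h, and Meg3 and Rian are highest on average in KO at 4wk.

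Within groups, livers high in Meg3 were also high in Rian. For 13 pairs of members, mostly neighbours, the deviations of log2 CPM (prior count 3) from the group mean were correlated over 45 libraries, with a permutation test within groups (100000 resamples, two-sided) and Benjamini-Hochberg adjustment over the 13 pairs. Only Meg3 and Rian passed, with Pearson's r of 0.739 (permutation p = 7e-05, adjusted 0.00091) and Spearman's rho of 0.702 (p = 0.0001, adjusted 0.0013). Without the 2 libraries farthest from the median of Meg3 r was 0.724, and without the 96h libraries 0.717. H19 and Igf2, which share enhancers, had r of 0.368 (permutation p = 0.0703, adjusted 0.161) and rho of 0.291 (p = 0.129, adjusted 0.279), and without the 2 farthest libraries r was 0.344. Igf2r and Airn had r of 0.39 (permutation p = 0.0412, adjusted 0.134) and rho of 0.326 (p = 0.0753, adjusted 0.245), which fell to an r of 0.241 without the 2 farthest libraries. The labels name no sequencing batch within which these relations could be repeated.

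**Figure D5:**
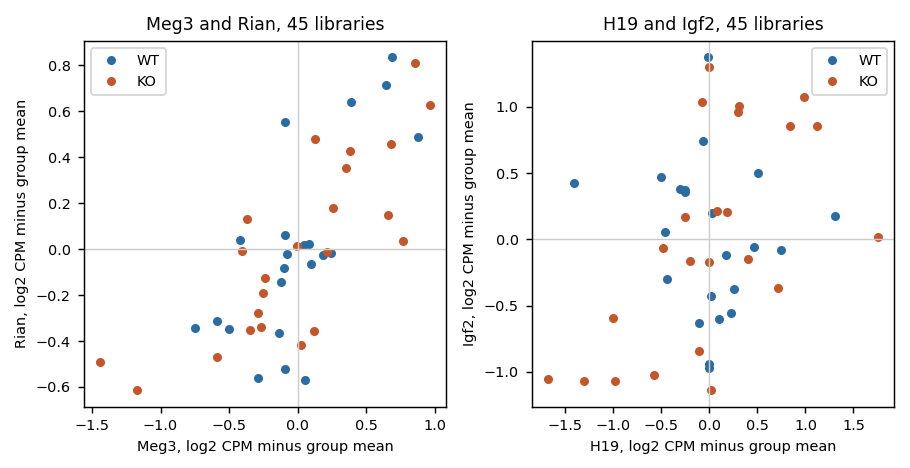
Deviations of log2 CPM from the group mean for Meg3 against Rian (left) and H19 against Igf2 (right), each point a library, 45 libraries, WT and KO in separate colours. Points for Meg3 and Rian rise together (r of 0.739), and those for H19 and Igf2 scatter widely (r of 0.368).

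Genes outside the list of 40 gave the background to these values. Of 48 other imprinted genes, 35 were in the count table and 31 were tested, and 2 were called in the mean of 7 conditions, where 2.13% of all genes were. Calcr, the calcitonin receptor gene of the Peg10 cluster, was 0 CPM in the 3 WT baseline libraries and 0.915, 1.11 and 0.618 CPM in the KO ones. With 43 counts against 0 its level was at least 11.7-fold higher in KO, taking 3 counts over the WT group as the floor and the 43 as without error. An exact 95% interval that includes their counting error has a lower limit of 9.14. The mean difference over 7 conditions was 4.38 ± 0.50 (edgeR adjusted p = 5.63e-07) and was called without any 1 of the 39 libraries. In the libraries labelled WT at 96h Calcr was 0.183, 0.594 and 1.42 CPM. In the other WT libraries it was at most 0.121 CPM. Calcr therefore passed the filter on low counts only through the libraries in which it was high. Sgce, Peg10 and Asb4, the members of the same cluster, were not called. Casd1, another gene there, differed by -0.15 ± 0.04 (adjusted p = 0.0342). Its call was lost without any 1 of 14 libraries: WT baseline replicate 3, KO baseline replicate 2, WT 24h replicate 2, KO 24h replicate 2, WT 30h replicate 2, KO 30h replicate 1 or 3, KO 40h replicate 2, WT 48h replicate 2 or 3, WT 7d replicate 2, KO 7d replicate 3, WT 4wk replicate 3 and KO 4wk replicate 1 (highest 0.117).

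Of 25 factors that set or keep imprints, 20 were tested and 1, Uhrf1, was called in the mean of 7 conditions (log2 -1.89 ± 0.32, edgeR adjusted p = 0.000261). Of 18 genes of the IGF axis, 17 were tested and 1 was called, Igf2bp3, an RNA-binding protein that holds fetal transcripts including that of Igf2. It was 0.915, 0.865 and 1.08 CPM at KO baseline and 0.657, 0.715 and 0.0764 CPM at WT baseline, and 2.16 and 1.44 CPM at KO 7d and 0.155, 0.278 and 0.128 CPM at WT 7d, without overlap at either time. Its mean difference was 2.07 ± 0.27 (adjusted p = 3.92e-06). It was also the only 1 called of 7 tested fetal liver genes. Each of these counts stands beside the same 2.13% of all genes. The test of genotype by time called 0 genes in each of these lists.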

How the data were processed

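Poly(A) RNA-seq libraries (100 base paired ends, per the labels' protocols) were assigned to their groups by the genotype and time in each title. The authors deposited a table of raw gene counts, which are whole numbers without normalization, and these gave all main results. A second table of FPKM values, also deposited by the authors, served to compare levels between genes and for some alternatives. The submitters' processing notes name the build mm10, TopHat2 2.1.0, HTSeq, Cufflinks 2.2.1, DESeq2, Trimmomatic and FastQC 0.11.5. Parameters and strand setting: not given in the sources used here.

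From the counts, edgeR 4.0.16 (R 4.3.3) with filterByExpr (14090 genes), TMM scaling and 16 group means over all 45 libraries gave quasi-likelihood tests, with 29 residual degrees of freedom and Benjamini-Hochberg adjustment over all genes. Errors of log2 changes are SE. CPM used TMM-scaled totals. Alternatives were DESeq2 1.42.0, limma 3.58.1 on log2(FPKM + 1) and log2(FPKM + 0.1) of the deposited FPKM, RLE scaling, no filter, a replicate block, the compared groups alone, no 96h libraries, and each library left out. The scripts were tested on simulated data.

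The members and lists were chosen with earlier results of these data known. Named with full values were the members called between genotypes, the 8 called members of smallest p in each joint test, 14 fixed members, and up to 3 called genes of each list in the mean of 7 conditions.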

Additional observations from a re-analysis of the deposited data

Results flagged for a closer look

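The KO minus WT difference of H19 at 96h differed from its mean over the other 7 conditions. H19 had 164, 62 and 18 counts in the KO libraries at 96h and 3, 1 and 0 in the libraries labelled WT, and the log2 difference there exceeded the mean of the other conditions by 5.39 ± 1.20 (edgeR adjusted p = 0.00366). This contrast was tested in the same fit but was added after seeing the data. It was called without any 1 of the 45 libraries, with values from 4.07 without KO 96h replicate 1 to 6.56 without WT 96h replicate 1. By this contrast 1 of 31 members was called, against 10.5% of all genes, and Cdkn1c (0.75, adjusted p = 0.16), Nnat (2.19, 0.0697) and Peg13 (-0.68, 0.113) were not.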

How the results depend on the processing

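Values were limited by low counts for H19, Igf2, Airn, Nnat and Phlda2, whose median library held 3, 5, 6, 4 and 2 counts, and by groups of 2 libraries. Where leaving out a library left 1 in a group (WT 30h, WT 48h, KO 7d), the lone library was assumed to vary like the other groups.

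No result reversed. Apart from leaving out single libraries, 595 of 633 gene-level values kept their call, 29 lost it and 9 gained it. For the mean of 7 conditions, the main test called 0 of 31 members, beside 300 genes in all. The fit without the 96h libraries called 1 of 31 members (331 genes in all), DESeq2 2 of 31 (402 genes) and the mean of all 8 conditions 2 of 31 (443 genes). With log2(FPKM + 1), 2 of 24 members were called with the filter (354 genes) and 2 of 39 without it (406 genes). With log2(FPKM + 0.1), 3 of 24 members were called (343 genes). At 30h between genotypes the count rose from 0 to 1 with log2(FPKM + 1), with or without the filter. There the genes called in all numbered 277 with the filter and 356 without it, against 132 in the main test. At 96h between genotypes the count fell from 3 to 0 when the compared groups were fitted alone, where 26 members were tested. The genes called in all fell from 2014 to 206 there. H19 and Cdkn1c lost their call, and Nnat was not among the members tested. The KO 30h count against baseline went from 8 to 5 with no filter, while the genes called in all went from 4658 to 4272. The KO 4wk count went from 3 to 5 without the 96h libraries and to 5 with DESeq2. The genes called in all there went from 1208 to 1680 and 1526. The cause of these changes was not tested.

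With single libraries left out, the members called ranged as follows. For WT against baseline they were 6 to 8 at 24h, 1 to 4 at 30h, 5 to 8 at 40h, 3 to 7 at 48h and 5 to 8 at 96h. For KO they were 4 to 6 at 24h, 2 to 7 at 30h, 2 to 5 at 40h, 5 to 7 at 48h, 10 to 13 at 96h, 0 to 2 at 7d and 1 to 2 at 4wk. They were 12 to 17 for the WT course, 17 to 21 for the KO course, 0 to 2 for the mean of 7 conditions and 1 to 3 between genotypes at 96h. All other comparisons stayed at 0.

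The median log2 difference of all genes moved by over 0.1 only with FPKM: to 0.124 at baseline and 0.119 at 48h with log2(FPKM + 1), and to 0.158, 0.143 and, at 30h, 0.122 with log2(FPKM + 0.1).

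Of 21 pairs of libraries of the same replicate number, 8 had a correlation of deviations over 0.1 (median 0.089, range -0.306 to 0.306). Pairs of different numbers were not compared, so this cannot tell whether replicate numbers pair the libraries. With a replicate block the mean of 7 conditions still called 0 members, the WT course 14 and the KO course 21, and no count moved by over 1.5 times.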
